A study of Mus musculus with 5 samples.

Results

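Long association neurons of the primary somatosensory cortex (S1) sit in several cortical layers and send axons to the primary motor cortex (M1) of the same hemisphere. The comparison here set association neurons of layer 5 (L5) against association neurons of layer 2/3 (L2/3). It used 2 of the 5 arrays of the study, and genes were kept where at least 1 of those arrays reached its own median signal, which gave 11897 genes of 19938 with a probe set of their own. The same filter over all 5 arrays kept 12632 genes.

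The association L5 and association L2/3 groups came from wild-type ICR mice at postnatal day (PD) 24. Mice had been electroporated *in utero* with pCAGGS-tdTomato to label L2/3 neurons, and Green RetroBeads, a fluorescent tracer taken up by axon endings, were injected into M1 at PD21, 3 days before collection. Labeled cells were cut out of fresh-frozen sections of S1 one at a time by laser microdissection, separately for each layer, about 1000 cells per group, and their RNA was amplified and read on 1 array per group. The sources used here do not give the number of mice per array. Each difference therefore has no replicate check, no test across genes was possible, and the values below are sizes. Callosal L5 and callosal L2/3 neurons, labeled from the S1 of the other hemisphere (cS1) with the same tracer at the same ages, and association L6b neurons supplied the other 3 arrays. The callosal pair shares no array with the association pair and gives a second reading of layer.

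L5 and L2/3 are output layers of the neocortex with different wiring. L2/3 holds pyramidal neurons that connect cortical areas with each other, within a hemisphere and across the corpus callosum. L5 holds neurons with such intracortical axons as well as thick-tufted neurons that leave the cortex for the brainstem and spinal cord. Both are excitatory, and each layer is recognised by its own transcription factors, calcium-binding proteins and cell-surface proteins, so that a set of known layer genes can be read in any sample labeled by layer.

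Levels are given as log2 signal minus the median of all probe sets on the same array, so that 0 is the middle of an array, and differences are association L5 minus association L2/3 in log2 units, where 1 is a 2-fold difference. Of the 11897 genes, 440 (3.7%) exceeded their association L2/3 level by 2-fold or more in association L5, and 926 (7.78%) fell short of it by as much. A 4-fold difference was passed by 95 genes on the higher side and 203 on the lower side (0.799% and 1.71%). Within 1.5-fold lay 9200 genes (77.3%). They included the 1984 genes (16.7% of the 11897) with exactly the same deposited value on both arrays. The difference of all genes had a median of -0.06, which is the difference between the 2 array medians of 5.77 and 5.71, and an SD of 0.678. The genes nearest the 2-fold limit were *Dgat2* on the inside (2.06 in association L5 and 1.06 in association L2/3) and *Ranbp1* on the outside (5.05 and 4.06), and on the lower side *Zfp831* inside (-0.19 and 0.81) and *Asic2* outside (1.74 and 2.73).

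**Figure D1:**
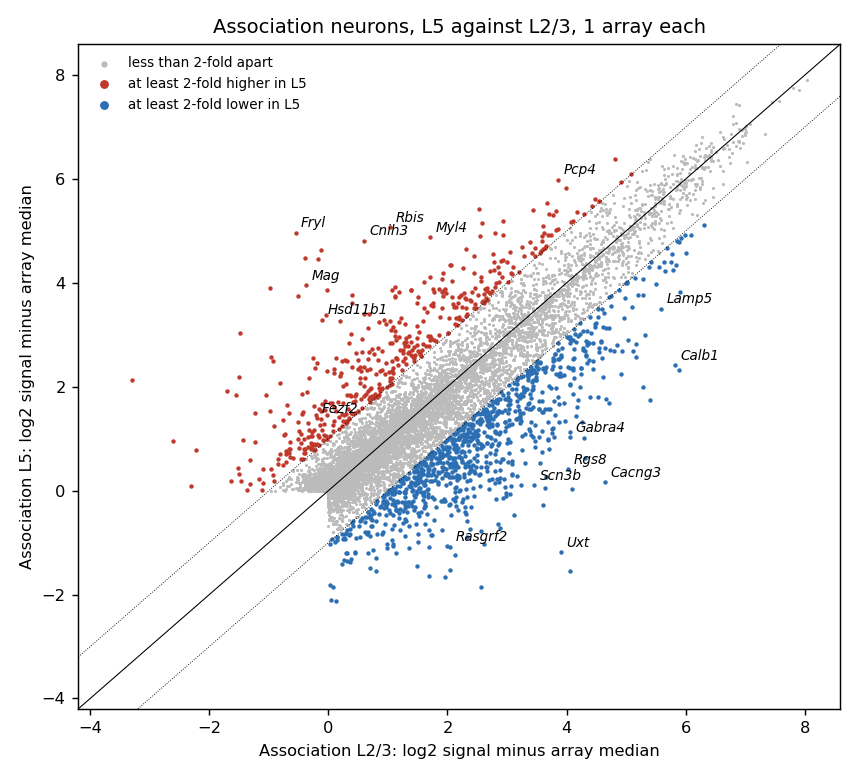
Level of each of the 11897 genes in association L5 neurons (vertical axis) against association L2/3 neurons (horizontal axis), both as log2 signal minus the array median, 1 array each, with the solid line at equal levels and dotted lines at 2-fold. The 440 genes at least 2-fold higher in L5 and the 926 at least 2-fold lower lie outside the dotted lines, and no gene lies in the lower left corner because genes below the median on both arrays were not compared.

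The labeled layers were read first in genes known to mark them. These lists were chosen with earlier results of these data known, so they are not an independent check of the layers. Of 24 L5 neuron genes compared (of 28 listed), 6 (25%) were at least 2-fold higher in association L5, against 3.7% of all genes, and 1 was at least 2-fold lower. Their median difference was 0.21, against -0.06 for all genes. Of 24 L2/3 neuron genes compared (of 27 listed), 11 were at least 2-fold lower in association L5, none was higher, and the median difference was -0.82, against 7.78% of all genes lower. The sign was fixed by the filter for 5 of the L5 genes, *Hsd11b1* and *Fezf2* among them, which were below the median in association L2/3 only, and for 3 of the L2/3 genes, *Rasgrf2*, *Stard8* and *Kitl*, which were below it in association L5 only. Not compared were 3 L5 genes and 1 L2/3 gene below the median on both arrays, and 1 and 2 without a probe set of their own.

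*Hsd11b1*, the enzyme that regenerates active glucocorticoid from its inert form, had the largest difference of the L5 genes. Its level was 3.29 in association L5 and -0.11 in association L2/3, a difference of 3.40 or 10.6-fold. Callosal neurons had 0.31 in L5 and -1.15 in L2/3, and association L6b had 0.34, so the association L5 array stood above all the others. *Myl4*, a myosin light chain, was at 4.88 in association L5 and 1.71 in association L2/3, a 9.0-fold difference. It showed the same order in callosal neurons, with 4.01 in L5 and 1.29 in L2/3.

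*Pcp4*, a small protein that binds calmodulin, had 5.99 in association L5 and 3.86 in association L2/3, 4.38-fold higher in L5. *S100a10*, an EF-hand protein that partners annexin A2, had 3.61 and 1.75, 3.63-fold higher. The transcription factor *Fezf2*, which specifies L5 neurons with subcerebral axons in the developing cortex, had 1.39 in association L5 and -0.20 in association L2/3, and 2.04 and -0.34 in callosal L5 and L2/3. These 3 genes, *Hsd11b1* and *Myl4* were the members at least 2-fold higher in L5 of both projections.

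*Rbp4*, a retinol carrier whose promoter drives a much used L5 Cre line, was higher in association L5 (3.76) than in association L2/3 (2.23), but callosal L5 had 1.12 and callosal L2/3 had 2.20. *Etv1*, an ETS transcription factor of L5, ran against its name in this pair: 1.65 in association L5 and 2.75 in association L2/3, a difference of -1.10, beside 2.19 and 0.31 in callosal L5 and L2/3. Its second probe set gave 0.23 for the association pair. *Bcl11b* (Ctip2), the transcription factor of subcerebral L5 neurons, had 0.66 and 0.72, the same deposited value on both arrays. *Crym*, *Colq* and *Npr3* also had identical deposited values. *Rbp4* and *Etv1* were the genes of this list that passed 2-fold in opposite directions in the association and callosal pairs.

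Among the L2/3 genes, *Calb1*, the calcium buffer calbindin, had 2.42 in association L5 and 5.82 in association L2/3, 10.6-fold lower in L5. Callosal neurons had 3.15 in L5 and 5.55 in L2/3, and association L6b had -1.62. *Rasgrf2*, an exchange factor for Ras and an upper-layer marker, had -1.08 in association L5 and 2.04 in association L2/3, and the other deep-layer arrays were also below their medians (-0.48 in callosal L5 and -1.22 in L6b). *Lamp5*, a membrane protein of neuronal endosomes, had 3.50 and 5.59, and the adhesion molecule *Nectin3* had 1.32 and 3.41, both 4.26-fold lower in association L5. For these 4 genes the L2/3 arrays of both projections lay above all 3 deep-layer arrays.

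*Rgs8* and *Penk* separated the association arrays more than the callosal ones. *Rgs8*, which speeds the turn-off of G protein signaling, had 0.41 in association L5 and 4.03 in association L2/3, a 12.3-fold difference, beside 0.47 and 0.91 in callosal L5 and L2/3. *Penk*, the enkephalin precursor, had 1.69 in association L5 and 3.95 in association L2/3, beside 1.72 and 1.92. The high value in both cases was that of association L2/3 alone. *Syt17*, a synaptotagmin-related protein, had 0.71 and 1.99 in the association pair and the opposite order, 2.00 and 1.02, in the callosal pair. The homeobox gene *Cux1* had a difference of -1.15 in association and -0.97 in callosal neurons, and its relative *Cux2*, added after its values were seen, -0.50 and -0.15. *Otof*, another L2/3 gene of the list, did not separate the layers. It had 0.54 in association L5 and 0.53 in association L2/3, and 0.50 and 0.46 in callosal L5 and L2/3. *Stard8* (-2.33 and -0.96), *Ccn3* (-1.24 and -0.96) and *Kitl* (-1.05 and -0.48) completed the 11, lower in L5 of both projections but under 2-fold in callosal neurons.

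**Figure D2:**
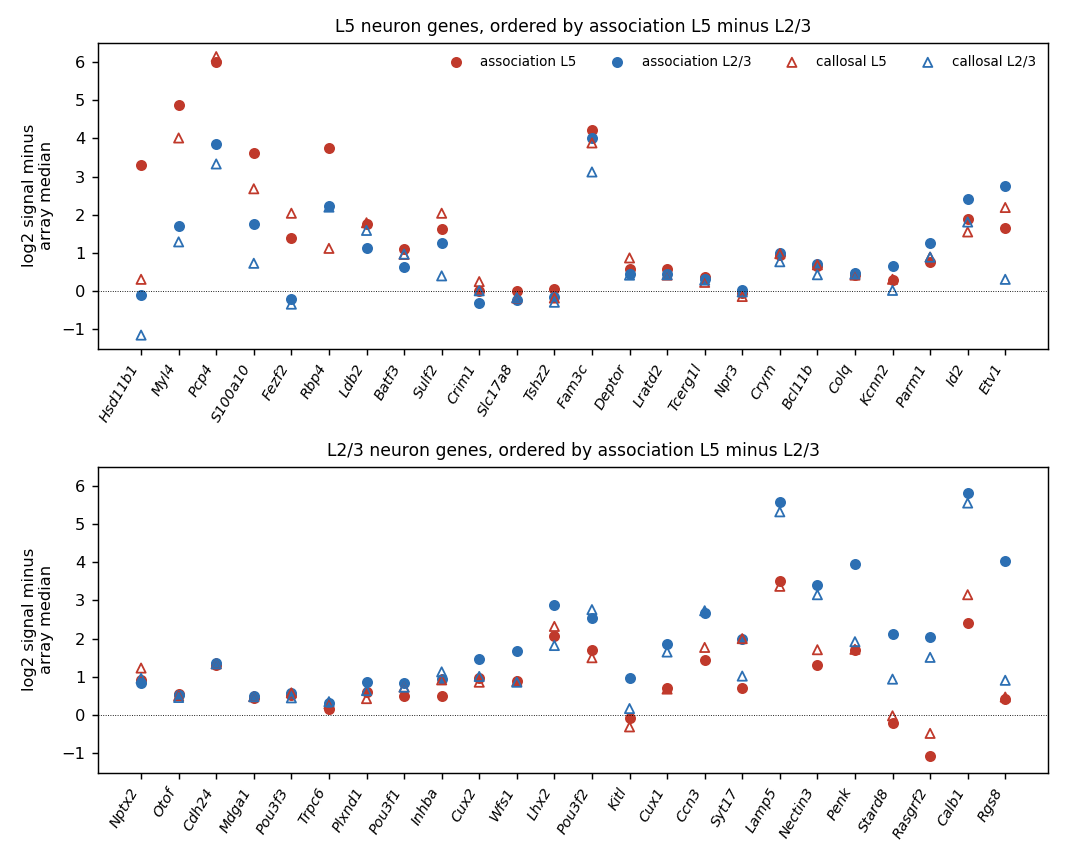
Levels (log2 signal minus array median, 1 array per group) of the 24 L5 genes (upper panel) and 24 L2/3 genes (lower panel) compared, filled circles for association neurons and open triangles for callosal neurons, red for L5 and blue for L2/3, ordered by the association difference. At the left of the upper panel both red symbols of *Myl4*, *Pcp4* and *S100a10* lie above both blue ones, and at the right of the lower panel both blue symbols of *Calb1*, *Rasgrf2* and *Lamp5* lie above both red ones.

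Genes of the other layers followed. None of the 11 L6b or subplate genes and none of the 8 L6a corticothalamic genes compared passed 2-fold, with medians of 0.06 and 0.14. Of 5 L4 genes, *Unc5d*, a netrin receptor, and the potassium channel gene *Kcnh5* were lower in association L5, by 1.64 and 1.37 on the log2 scale, and also in callosal L5, by 1.52 and 1.87. That is 40% of the list, against 7.78% of all genes, and the list median was -0.39. The remaining members stayed under 2-fold, *Rorb* at -0.39, *Rspo1* at 0.30 and *Thsd7a* at 0.07. A second probe set of *Unc5d* differed by -0.07 in the association pair. Among 18 genes of cortical projection identity, the bHLH factors *Neurod1* and *Neurod6* moved apart, while *Neurod2* differed by -0.32 (0.27 in callosal neurons). *Neurod1* was below the median in association L5 only, so the filter fixed its sign. *Neurod1* had -1.18 in association L5 and 0.44 in association L2/3, with the same order in callosal neurons (-1.52 and 0.36), while *Neurod6* had 2.79 and 1.29, beside 3.42 and 2.58. *Mef2c*, an activity-regulated transcription factor, was 2.10-fold lower in association L5.

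As labels of excitatory neurons, *Slc17a7*, the cortical vesicular glutamate transporter, had 4.01 in association L5 and 3.84 in association L2/3, and *Nrgn*, neurogranin, had 3.60 and 3.69. These were picked after their values were seen, as checks. *Camk2a* and *Dlg4* (PSD-95), of the postsynaptic density, were 2.53-fold and 2.77-fold lower in association L5, and these 2 genes and *Neurod6* were the only ones past 2-fold of 14 glutamatergic genes compared. That is 14.3% lower and 7.14% higher, against 7.78% and 3.7% of all genes.

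The layer difference was then read in the callosal pair over the same genes, where 466 (3.92%) were higher and 502 (4.22%) lower in L5 by 2-fold or more. Higher in L5 of both projections were 68 genes, which is 15.5% of those higher in association neurons and 14.6% of those higher in callosal neurons. Lower in both were 115 genes, 12.4% and 22.9%. Opposite directions past 2-fold were found for 111 genes, 41 of them higher in association L5 and 70 lower. The 41 were 9.32% of the genes higher in association L5, against 4.22% of all genes lower in callosal L5. The 70 were 7.56% of the genes lower in association L5, against 3.92% of all genes higher in callosal L5. Shares in opposite directions were thus also above those of all genes. Across the 11897 genes the association and callosal differences had a Pearson r of 0.0936 and a Spearman rho of 0.0949, a description in which genes are not independent replicates and all arrays share the same amplification method.

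**Figure D3:**
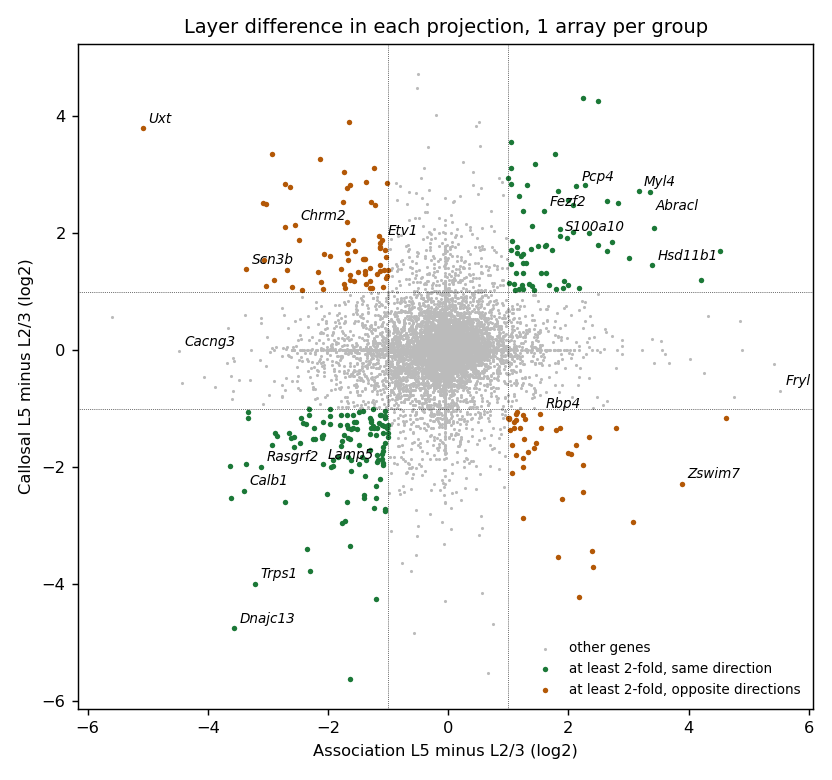
Difference between L5 and L2/3 (log2) in association neurons (horizontal axis) and in callosal neurons (vertical axis) for 11897 genes, 1 array per group, with dotted lines at 2-fold. Green points are the 68 and 115 genes past 2-fold in the same direction in both, orange points the 111 past 2-fold in opposite directions, and most genes past 2-fold in association neurons lie between the horizontal dotted lines.

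Ranked by the smaller of their 2 differences, the genes higher in L5 of both projections were led by *Abracl*, a small regulator of actin, and *Myl4*. *Abracl* had 3.76 and 0.40 in association L5 and L2/3, 3.61 and 0.90 in callosal L5 and L2/3, and 3.47 in L6b, so that the deep-layer arrays formed one group and the L2/3 arrays another. *Golga7*, which partners protein palmitoyltransferases, had 2.45 and -0.19 in association L5 and L2/3 and 2.62 and 0.06 in callosal L5 and L2/3. *Smim26* differed by 2.82 in association and 2.52 in callosal neurons. Then followed the zinc finger gene *Zfp949* (2.49 and 4.27), the ubiquitin ligase gene *Arih2* (2.27 and 2.83, with 0.80 from its second probe set in association neurons), the nucleotidase gene *Nt5c3* (2.25 and 4.32), *Pcp4* (2.13 and 2.81), *Taf1d* (3.42 and 2.09), for which 3 of 9 probe sets gave the sign used, and *Tmem267* (2.07 and 2.02).

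On the lower side of both projections, *Dnajc13*, an endosomal co-chaperone, had 2.32 in association L5 and 5.88 in association L2/3, and 0.37 and 5.12 in callosal L5 and L2/3. Of its 15 probe sets, 12 gave the same sign in the association pair. *Trps1*, a GATA-type repressor, had -0.89 and 2.33 in association and -1.26 and 2.73 in callosal neurons, but 4.94 in L6b, so that it was low in L5 and not in deep layers as such. *Eid3* (-3.62 and -2.53), *Psmg1*, a chaperone of proteasome assembly (-3.64 and -1.97), *Pip5k1b*, a phosphoinositide kinase (-2.35 and -3.39), and the nucleoporin gene *Nup62* (-2.01 and -2.46) joined *Calb1*, *Rasgrf2* and *Lamp5* among the leading genes. The second probe set of *Trps1* differed by -0.63.

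The promoters of genes that moved together were read from RefSeq (build GRCm38.p6), 250 bases before each start. *Pcp4* (chr16:96467356-96467605, plus strand) and *Rasgrf2* (chr13:92131829-92132078, minus strand) are shown as a gene higher and a gene lower in L5 of both projections, with capitals marking a CRE half-site, the letters TGACGT on either strand, which was found in *Rasgrf2* 43 bases before the start.
Pcp4: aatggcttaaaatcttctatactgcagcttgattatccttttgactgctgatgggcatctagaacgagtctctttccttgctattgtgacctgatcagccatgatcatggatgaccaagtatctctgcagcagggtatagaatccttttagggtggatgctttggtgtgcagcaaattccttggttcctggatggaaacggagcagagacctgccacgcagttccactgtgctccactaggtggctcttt
Rasgrf2: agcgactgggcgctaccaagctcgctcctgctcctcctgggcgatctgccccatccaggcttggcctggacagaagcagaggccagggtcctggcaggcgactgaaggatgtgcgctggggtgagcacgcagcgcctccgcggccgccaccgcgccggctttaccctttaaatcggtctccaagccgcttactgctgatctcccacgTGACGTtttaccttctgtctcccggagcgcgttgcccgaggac
The half-site was present in 7.46% of 67 promoters of genes higher in both projections, 7.83% of 115 promoters of genes lower in both and 6.47% of all 32851 promoters of the table. The NeuroD E-box CAGATG was in 8.96%, 11.3% and 14.4%, the octamer ATGCAAAT in 1.49%, 0% and 1.6%, and the TATA box TATAAA in 5.97%, 6.09% and 12.4% (both strands; none of these motifs holds another). Promoters were found for 56 of the 68 and 89 of the 115 genes. In promoters of all genes higher and all genes lower in association L5, the TATA box was in 9.11% and 7.34%. The E-box was in 9.57% and 10.3% of them, the half-site in 9.57% and 10.6% and the octamer in 1.14% and 0.905%. The whole table includes promoters of genes that were not compared. Differences from it cannot be read as traits of genes that moved together. These are matches of letters and say nothing of whether a factor binds.

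The genes of largest difference in the association pair were of another kind. *Fryl*, a relative of the fly furry gene, led the higher side with 4.97 in association L5 and -0.55 in association L2/3, and lay between -0.22 and 0.60 on the other 3 arrays. Only 1 of its 3 probe sets gave this sign. *E2f3*, a cell-cycle transcription factor, had 4.47 in association L5 and -0.39 in association L2/3, and lay between -0.93 and -0.42 elsewhere, and its second probe set gave a difference of 0.95. *Ccdc74a* (4.63 and -0.12), the ubiquitin ligase gene *Rnf25* (3.74 and -0.51), *Zfp773* (2.18 and -1.50), *Cfap300* (1.91 and -1.70) and the mitochondrial carrier gene *Slc25a2* (2.58 and -0.96) likewise were above 1 in association L5 alone. These 7 genes were thus high on 1 array of 5, which gives them no second reading by layer or by projection.

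Others of the leading genes were also above 1 on another array. *Cnih3*, an auxiliary subunit that slows AMPA receptor gating, had 4.81 in association L5 and 0.60 in association L2/3, an 18.5-fold difference, beside 2.45 and 1.24 in callosal L5 and L2/3. *Gnpnat1*, an enzyme on the path to UDP-N-acetylglucosamine, had 3.04 and -1.49, beside 3.72 and 2.03. *Rbis*, a ribosome biogenesis factor, had 5.07 and 1.04, with 3.18 in L6b but 0.71 and 0.86 in callosal L5 and L2/3. *Zswim7*, a zinc finger gene, had 3.87 in association L5 and -0.02 in association L2/3, and the reverse order in callosal neurons, 0.40 in L5 and 2.68 in L2/3. Among genes above the median on both association arrays, *Nkain4* was higher by 3.22, the proteasome subunit gene *Psma5* by 2.89, the neurturin receptor gene *Gfra2* by 2.73 and the mitochondrial ribosomal protein gene *Mrpl34* by 2.64.

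On the lower side *Uxt*, a prefoldin-related chaperone gene, had -1.18 in association L5 and 3.90 in association L2/3, a 33.8-fold difference that both of its probe sets gave. Callosal neurons had the opposite order, 3.70 in L5 and -0.10 in L2/3. *Cacng3*, a transmembrane AMPA receptor regulatory protein, had 0.16 in association L5 and 4.64 in association L2/3, while both callosal arrays were as high as L2/3 (4.70 in L5 and 4.71 in L2/3) and L6b as low as L5 (-0.03). Low association L5 values beside 4 higher arrays were found for *Ddah1*, which degrades methylarginine inhibitors of nitric oxide synthase (0.63 in association L5, 4.31 in association L2/3 and 4.35 to 5.86 elsewhere), *Mdga2*, an adhesion protein of synapses (0.03, 4.09 and 2.98 to 3.96), and the choline transporter gene *Slc44a1* (-0.28, 3.60 and 2.02 to 3.05). For *Mdga2* and *Slc44a1* a second probe set differed by -0.40 and -0.29.

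In a further group the association L2/3 array was the high one. *Zmiz1*, a transcriptional coactivator, had 0.05 in association L5, 3.63 in association L2/3 and 0.45 to 0.68 elsewhere, and the ciliary transcription factor gene *Rfx3* had -0.46, 3.12 and 0.31 to 1.01. *Pqbp1*, a splicing-related protein, had 1.74 in association L5, 5.40 in association L2/3 and 1.36 to 2.94 elsewhere. The 3 probe sets of *Zmiz1* differed by -3.58 to -0.06. *Gkap1* (0.26 and 3.65) and the centrosomal gene *Cep63* (-0.71 and 2.89) had a second probe set that did not differ in this way, at 0.08 and 0.22.

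Receptors and ion channels set how a neuron responds to its inputs. Of 8 GABA-A receptor subunits, the chloride channels of fast inhibition, 4 (50%) were at least 2-fold lower, against 7.78% of all genes, and none was higher. Their median difference was -1.01, against -0.06 for all genes, and ran to -0.43 under other filters and probe set rules. *Gabra4* had 1.03 in association L5 and 4.06 in association L2/3, beside 3.60 and 3.87 in callosal L5 and L2/3. *Gabrb1* had -0.58 and 2.32, and the opposite order in callosal neurons (1.82 and 0.62). It was below the median in association L5 only, so the filter fixed the sign of its association difference. *Gabra2* was at 3.02 in association L2/3 and between 0.48 and 0.92 on the other arrays. *Gabrb2* had 4.35 and 5.84. In the callosal pair the same 8 genes had a median of 0.44, with 2 higher in L5 and none lower.

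Of 9 acetylcholine receptor genes, the muscarinic receptors *Chrm3* and *Chrm2* were at least 2-fold lower (22.2%, against 7.78% of all genes). *Chrm3* had 0.80 in association L5 and 3.70 in association L2/3, beside 0.72 and 1.24 in callosal L5 and L2/3. *Chrm2* had -0.38 and 2.17, beside 1.91 and -0.23, so its layer order turned round between the projections. It entered through association L2/3 alone, so the filter fixed the sign of its association difference. The nicotinic subunits lay within 2-fold, between -0.13 (*Chrnb2*) and 0.52 (*Chrna4*).

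Among 11 ionotropic glutamate receptor genes *Grin2a*, the NMDA receptor subunit of the mature cortex, was the member past 2-fold (9.09%, against 7.78% of all genes lower), with 2.35 in association L5 and 4.45 in association L2/3. It had the same order in callosal neurons, 3.10 in L5 and 4.56 in L2/3, and L6b had 0.96. The AMPA receptor genes *Gria3* and *Gria2* were lower by 0.98 and 0.82, under the 2-fold size. None of the 6 metabotropic glutamate receptors passed it.

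Sodium channel genes had a median difference of -0.60 over 7 compared. The auxiliary subunit gene *Scn3b* had 0.10 in association L5 and 3.46 in association L2/3, and 2.57 and 1.18 in callosal L5 and L2/3, again in opposite order. *Scn8a*, the main axonal sodium channel of mature neurons, had 0.92 and 2.66, while both callosal arrays had 1.45. Of 14 calcium channel genes, the R-type channel gene *Cacna1e* (0.50 and 2.43) and the auxiliary subunit gene *Cacna2d1* (3.70 and 4.98) were lower and none was higher. That is 14.3% lower, against 7.78% of all genes and 15.4% and 16% in the 2 brightest of 5 bins of signal. The share therefore does not set the list apart.

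Potassium channel genes were read by family. Of 12 genes of the M-current, EAG and HCN families, which shape the resting and near-threshold conductances, 5 (41.7%, against 7.78% of all genes) were lower: *Kcnq5* (1.18 in association L5 and 3.37 in association L2/3), *Kcnh7* (2.74 and 4.64), *Kcnh5* (3.04 and 4.41), *Kcnh1* (0.26 and 1.52) and *Kcnq3* (1.41 and 2.65). The hyperpolarization-activated channel gene *Hcn2* (1.60 and 0.64) and *Pex5l*, which encodes the HCN partner TRIP8b (3.52 and 2.62), were 1.95-fold and 1.87-fold higher, just under the size. The A-type channel partner *Kcnip4* had 0.56 and 2.88, 4.99-fold lower in association L5, and 1.97 and 3.08 in callosal L5 and L2/3. *Kcnb2* and *Kcnt2* were lower by 1.52 and 1.05. Of the 8 Kv1 and beta subunit genes only *Kcna6* passed 2-fold, on the higher side with 1.40 and 0.34, and *Kcnab1* had 0.11 and 0.07.

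**Figure D4:**
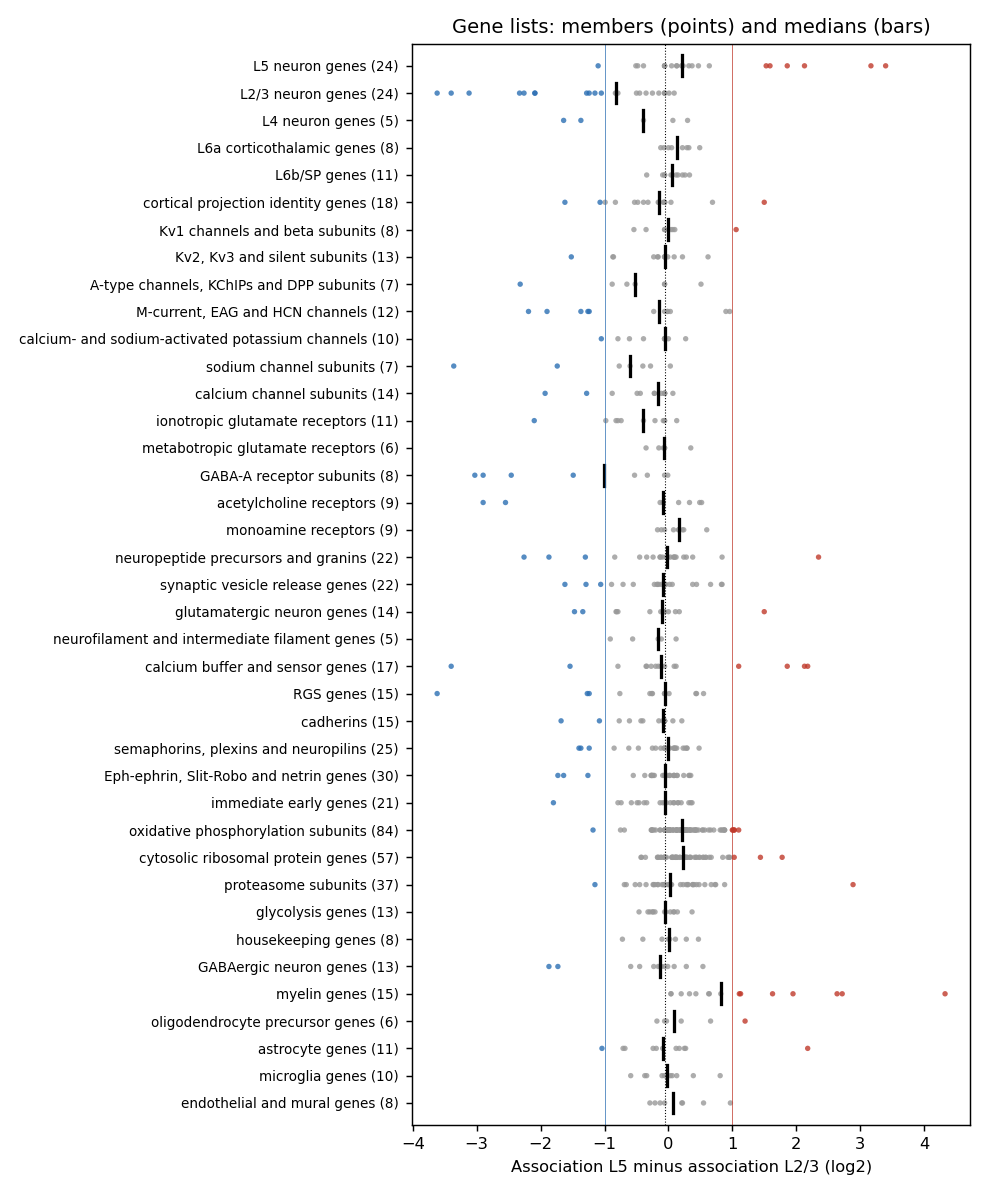
Difference between association L5 and association L2/3 (log2, horizontal axis) for the members of 39 gene lists with the number compared in brackets, 1 point per gene, red where at least 2-fold higher in L5 and blue where at least 2-fold lower, with a black bar at each list's median, vertical lines at 2-fold and a dotted line at the median of all genes, -0.06. The L2/3 neuron genes and GABA-A receptor subunits have medians of -0.82 and -1.01, and the myelin genes one of 0.82.

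Calcium-binding proteins went both ways. Of 17 compared, *S100b* (4.08 in association L5 and 1.90 in association L2/3), *Pcp4*, *S100a10* and *Pcp4l1* (2.16 and 1.06) were higher, and *Calb1* and the calcineurin catalytic subunit gene *Ppp3ca* (4.24 and 5.78) were lower. That is 23.5% higher and 11.8% lower, against 3.7% and 7.78% of all genes. The 5 neurofilament and related genes stayed within 2-fold, with *Nefm* at 4.62 and 5.53 and *Nefh* at 2.09 and 1.97. Of 15 RGS genes, *Rgs8*, *Rgs6* and *Rgs4* were lower (20%, against 7.78% of all genes), the last of them by 1.24 and *Rgs6* by 1.27.

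Genes of axon guidance, adhesion and transmitter release that passed 2-fold did so on the lower side, with 2 or 3 genes per list. Those were 10% to 13.6% of each list, near the 7.78% of all genes. The share lower was 13.7% in the longest of 5 bins of gene length. In the 2 brightest of 5 bins of signal it was 15.4% and 16%. These shares therefore do not set the lists apart. Of 25 semaphorin, plexin and neuropilin genes, *Sema3a*, a repulsive cue, fell by 1.40 on the log2 scale, and its receptor components *Plxna2* and *Plxna4* by 1.37 and 1.24. The callosal differences of these 3 genes were -2.52, -0.19 and 0.00. Of 30 Eph-ephrin, Slit-Robo and netrin genes, *Epha6* and *Epha4* (-1.73 and -1.26) passed with *Unc5d*, with callosal differences of 0.19 and -0.05 for *Epha6* and *Epha4*, and of 15 cadherins *Cdh12* and *Cdh7* (-1.68 and -1.08), both of which were also at least 2-fold lower in callosal L5 (-1.28 and -1.41). Of 22 vesicle release genes, *Sv2c*, *Unc13a* and *Syt1*, the calcium sensor of fast release, were lower by 1.62, 1.29 and 1.06, and their callosal differences were -0.01, -0.38 and 0.14. *Sv2c* was below the median in association L5 only, so the filter fixed its sign.

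Neuropeptide genes included *Grp* and *Nmb*, which were above the array median in association L5 alone, *Nmb* only just, at 0.02. *Grp*, gastrin-releasing peptide, had 1.65 in association L5, -0.70 in association L2/3 and -0.79 to -0.73 elsewhere. *Penk*, *Vip* and *Tac2* were lower (13.6% of the list, against 7.78% of all genes), *Vip* with -0.13 and 1.74 and *Tac2* with -0.56 and 0.74. *Vip* and *Tac2* were below the median in association L5 only, so the filter fixed their sign. Of 21 immediate early genes, which rise within minutes to hours of neuronal activity, *Egr2* passed 2-fold (0.58 and 2.38), and *Fos*, *Arc* and *Npas4* differed by 0.08, 0.37 and -0.34.

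Genes of oxidative phosphorylation and of the ribosome had small differences, more of them above zero than below. Of 84 genes of oxidative phosphorylation and its assembly, 62 lay above zero and 16 below. The median difference was 0.22, against -0.06 for all genes. Counts above and below zero over all genes are not given here. At least 2-fold higher were 5 (5.95%, against 3.7% of all genes), among them the complex I genes *Ndufs7* (3.84 in association L5 and 2.74 in association L2/3) and *Ndufb8* (5.95 and 4.92). *Ndufaf1*, a complex I assembly factor, was the member at least 2-fold lower (0.72 and 1.90). Of 57 cytosolic ribosomal protein genes, paralogs included, 43 lay above zero and 11 below, with a median of 0.23. *Rps4l*, *Rpl14* and *Rpl6* (5.26%) passed 2-fold, with differences of 1.78, 1.44 and 1.03. In the brightest of 5 bins of signal, 8.87% of genes were higher, so the shares past 2-fold do not set these lists apart. In the callosal pair both medians were nearer zero, 0.09 and 0.02. The 37 proteasome subunits and 13 glycolysis genes had medians of 0.02 and -0.06.

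Markers of other cells that lie beside pyramidal neurons were read in the same way. All 15 myelin genes compared lay above zero, 7 of them (46.7%, against 3.7% of all genes) at least 2-fold higher in association L5, and their median was 0.82. Of the 15, 5 were below the median in association L2/3 and so entered through association L5 alone, and 4 of the 19 listed were not compared. *Mag*, a glycoprotein of the inner myelin sheath, had 3.96 in association L5 and -0.37 in association L2/3, and lay between 0.05 and 1.47 elsewhere. *Mobp* (3.83 and 1.19), *Ermn* (1.49 and -1.23), *Aspa* (0.43 and -1.52), *Ugt8a* (2.16 and 0.53), *Tspan2* and *Cnp* made up the 7. The list's summed signal, on the log2 scale, was 5.93 in association L5 and 4.38 in association L2/3. *Mbp* had 2.03 and 1.39, and *Mog* 1.28 and 0.46, with 4.12 in L6b. Myelin genes were also higher in callosal L5, 5 past 2-fold and a median of 0.50. In tissue cut from sections, a larger share of a cell type and more RNA per cell cannot be told apart, and the part of oligodendrocyte RNA in the other differences was not tested.

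Of 6 oligodendrocyte precursor genes, *Olig2* was at least 2-fold higher in association L5 (0.91 and -0.29), 16.7% of the list against 3.7% of all genes. *Olig2* entered through association L5 alone, so the filter fixed its sign. Astrocyte genes had a summed signal of 6.24 in association L5 and 6.19 in association L2/3, with *S100b* higher and the glutamate transporter gene *Slc1a3* lower (1.02 and 2.06). None of 10 microglia genes and none of 8 endothelial or mural genes passed 2-fold. Of 13 GABAergic neuron genes, 9 lay below zero and 3 above, and *Vip* and *Gad2* (0.45 and 2.18) were at least 2-fold lower (15.4%, against 7.78% of all genes), while *Gad1* had 2.00 and 1.46, *Sst* 3.78 and 4.23 and *Pvalb* 4.41 and 4.57, so that interneuron transcripts were read in both association arrays. The sign of *Vip* was fixed by the filter. The part of interneuron transcripts in the layer differences was not tested.

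Both association arrays carried the same sex-linked pattern, read after other values were known. *Xist*, which is transcribed from the inactive X chromosome of females, had 1.47 in association L5 and 2.55 in association L2/3, and the Y-linked *Eif2s3y* had -2.47 and -2.61. Callosal L5 and L2/3 had the opposite pattern, with -1.48 and -0.88 for *Xist* and 2.45 and 2.90 for *Eif2s3y*. Layer was thus compared within each pattern, while the association and callosal pairs also differed by it.

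The genes lower in association L5 were longer than those higher. In 5 equal bins of gene length with medians of 3.07, 9.70, 20.03, 41.6 and 123 kb (11889 genes with a length in RefSeq), 3.78%, 5.26%, 6.52%, 9.59% and 13.7% were at least 2-fold lower. The share higher ran the other way, with 4.96%, 4.42%, 3.66%, 2.94% and 2.52%. In the callosal pair the shares lower were 3.66%, 3.7%, 4.42%, 3.87% and 5.47%. Many receptor, channel and adhesion genes are long, and ribosomal protein and respiratory chain genes are short. Among genes in the brightest of 5 bins of signal, 8.96%, 14.1% and 24.9% of the short, middle and long ones (3 equal bins) were lower in association L5, against 7.07%, 5.68% and 7.58% in callosal L5, so the order was also present at high signal. The contribution of RNA quality or amplification to it was not tested.

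**Figure D5:**
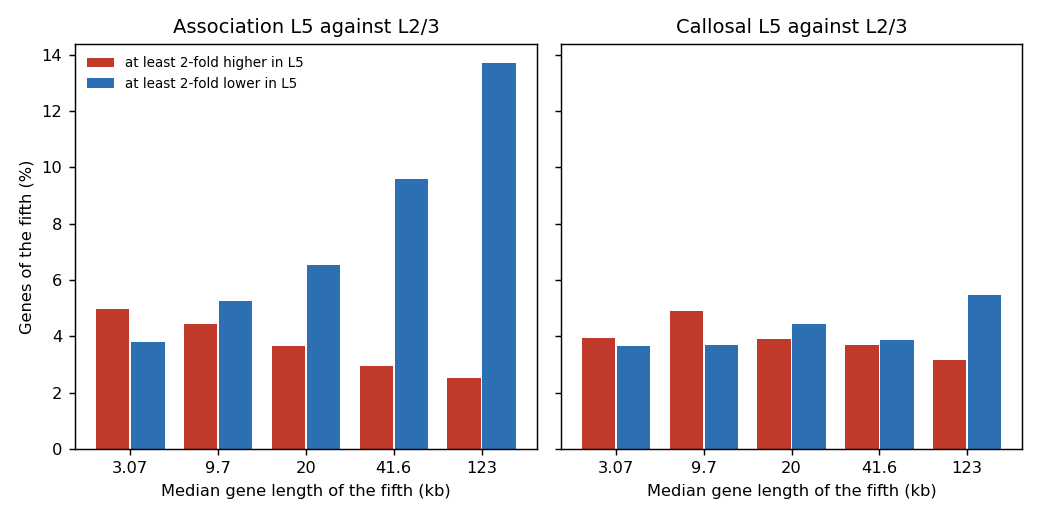
Share of genes (%) at least 2-fold higher (red) or lower (blue) in L5 than in L2/3, by 5 equal bins of gene length labeled with their medians in kb, for association neurons (left) and callosal neurons (right), 1 array per group. The share lower in association L5 is 3.78% in the shortest and 13.7% in the longest bin, and in callosal neurons it is 3.66% and 5.47%.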

How the data were processed

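The authors deposited log2 signals for 35556 probe sets of an Affymetrix whole-transcript mouse array, 1 array per group, made per the labels with Affymetrix Expression Console. The study's methods name a log transform, a global normalization and centering of the signals. Whether the deposited values already hold the global normalization is not stated; they are not centered per gene. The version, the summarisation and detection calls are not given in the sources. From these log2 values, between 1.11 and 14.2, each array's median signal was subtracted. Of the probe sets, 21789 had 1 gene symbol in the platform annotation, 1621 had several and 12146 had none. For a gene of several probe sets the one with the highest mean was used. Genes at or above the median in either association array were compared.

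The size rule was 2-fold. With 1 array per group no test was run, and the precision of a value is unknown. Named genes were the 12 highest and 12 lowest differences, the 10 highest and 10 lowest with both arrays at or above the median, the 10 highest and 10 lowest by the smaller of the association and callosal differences, and in each of 40 lists the 4 of largest size and all past 2-fold, leaving out predicted genes, clones, olfactory receptors and small RNAs. Other genes named are examples of a list chosen after values were seen. The blood list had no gene compared. Members and lists were chosen with earlier results of these data known. Scripts were checked on simulated data (Python 3.11.15, numpy 2.4.6, pandas 2.3.3, statsmodels 0.14.6). Alternatives were other scalings, filters, probe set rules and sizes.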

Additional observations from a re-analysis of the deposited data

Results flagged for a closer look

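Some genes moved past 2-fold in opposite directions in association and callosal neurons. Each rests on 1 array per group, and the difference between the projections was not tested. In association neurons *Uxt* differed by -5.08 between L5 and L2/3, *Scn3b* by -3.36, *Gabrb1* by -2.90, *Chrm2* by -2.55 and *Etv1* by -1.10, where callosal L5 was higher than callosal L2/3 by 3.80, 1.39, 1.20, 2.14 and 1.88 in the same order. *Zswim7* differed by 3.89, *Rbp4* by 1.53 and the complex I assembly factor gene *Ndufaf5* by 1.0, where the callosal differences were -2.28, -1.08 and -1.15. For *Etv1* the second probe set gave 0.23 in association neurons, and for *Uxt* both probe sets gave the direction above. The filter fixed the sign of the association difference for *Uxt*, *Gabrb1*, *Chrm2* and *Zswim7*, each below the median on 1 association array. The association and callosal arrays also differed in *Xist* and *Eif2s3y*.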

How the results depend on the processing

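The counts of 440 genes higher and 926 lower in association L5 ran between 322 and 527 and between 701 and 943 over the other scalings, filters and probe set rules, and the lower genes made up 60.02% to 68.5% of those called. With a 1.5-fold size 936 genes were higher and 1761 lower, and 168 and 348 were so in both projections. With a 4-fold size the counts were 95 and 203, and 12 and 8 in both projections. *Cep63* had a difference of 0.246 under quantile normalization, where its other probe set was taken, and the list median of the L4 neuron genes was 0.03 with no filter on dim genes, which brings in more members. Averaging probe sets moved 12 named genes, among them *Fryl* to 1.71 and *Etv1* to -0.44. Of 124 named genes past 2-fold, 110 kept sign and size and 123 kept the sign in every setting that held them. The median of the GABA-A receptor subunits ran between -1.01 and -0.43. The share lower in the longest of 5 length bins was 11.9% under quantile normalization and 13.5% under loess. No paired analysis was possible because each group had 1 array. Exact ties between arrays hold 16.9% of probe sets in the association pair and 25.2% in the callosal pair. Tied genes differ only by the array medians, so setting them to 0 could not change either count of genes past 2-fold. Depth has no counterpart here beyond signal, and genes near the array median may not be above background.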
